A study of Mus musculus with 9 samples.

Results

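Genes for matrix glycoproteins, proteoglycans and crosslinking enzymes were followed in gastrocnemius, the large calf muscle, of mice aged 6, 15 and 21 months. The 37 genes were chosen by name, and the deposited table held all 37 among its 17314 genes. All 37 passed the expression filter that left 13044 genes for testing. By their known sites of action, 30 were set apart as interstitial genes and 7 as tendon and cartilage genes. The interstitial genes comprised 11 of elastic fibres and microfibrils, 7 proteoglycans, 9 adhesive and matricellular glycoproteins and 3 crosslinking enzymes. Each age was represented by 3 mice with 1 polyadenylated RNA library per mouse. The labels name no treatment, and they state no strain, sex or genotype. The series title links thyroid hormone receptor alpha with muscle aging, so the comparisons ask which matrix genes differed between ages.

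The extracellular matrix of muscle is laid down mainly by fibroblast-like cells between the fibres and, at the ends of the fibres, by tendon cells. Elastic fibres form when elastin is deposited on microfibrils of fibrillin and is then crosslinked by enzymes of the lysyl oxidase family. Small leucine-rich proteoglycans such as decorin bind collagen and shape its fibrils. Matricellular proteins such as thrombospondins, periostin and the CCN family signal to cells and bear little load.

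Total counts ranged from 15354396 to 17317856 per library, and levels are given as CPM, a gene's counts scaled to a library of fixed size after TMM normalisation. Markers of fast fibres, the main fibre type of this muscle, summed to 132728 to 197553 CPM in the 9 libraries. The 37 matrix genes together summed to 2334 to 3123 CPM in the 9 libraries. Mouse 2 at 6 months, mouse 1 at 15 months and mouse 3 at 21 months stood apart on the first principal component, at -48.0, 27.6 and 26.7, and held the lowest and the 2 highest sums of slow fibre markers. These 9 markers summed to 94.8 to 304 CPM at 6 months, 388 to 1215 CPM at 15 months and 249 to 1112 CPM at 21 months. Results were therefore also computed without these 3 libraries. In bulk muscle, fewer cells of a type and less RNA per cell cannot be told apart.

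Ccn5 and Prelp differed most clearly with age among the 37 genes. Ccn5, which encodes a matricellular protein of the CCN family, averaged 4.10 CPM at 21 months and 3.90 CPM at 15 months, against 1.54 CPM at 6 months. Prelp, which encodes a leucine-rich protein that binds collagen and heparan sulfate, averaged 42.3 CPM at 21 months against 61.8 CPM at 6 months. Neither passed an adjusted p of 0.05 in edgeR's quasi-likelihood test, and DESeq2 called both at 21 against 6 months and Ccn5 at 15 against 6 months. The tendon and cartilage genes varied widely between mice of 1 age, and all 7 were lowest in the same mouse at 15 months.

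Adjusted over all 13044 genes, edgeR called 0 of the 37 matrix genes in each pairwise comparison and over the 3 ages. The same threshold was passed by 0.0153% of all tested genes at 21 against 6 months, 0.00767% at 15 against 6 months, 0.00% at 21 against 15 months and 0.00% over the 3 ages. DESeq2 called 2 of 37 at 21 against 6 months, where it called 1.44% of genes, and 1 of 37 at 15 against 6 months, where it called 0.846%. It called 0 of 37 at 21 against 15 months, where it called 0.0174%, and 1 of 37, Ccn5, over the 3 ages, where it called 1.53%. DESeq2 shares, here and below, are of the genes to which it gave an adjusted p. These were 13566 at 21 against 6 months, 13232 at 15 against 6 months, 17245 at 21 against 15 months and 13232 over the 3 ages. At an unadjusted p under 0.05 in edgeR, 1 matrix gene was higher and 2 were lower at 21 against 6 months, against 5.14% and 5.50% of all genes, 10.6% in all. In the comparison of 15 with 6 months 1 was higher and 1 lower, against 4.91% and 5.38%, 10.3% in all. At 21 against 15 months 0 were higher and 0 lower, against 1.08% and 0.736%, 1.82% in all. Over the 3 ages 2 of the 37, Ccn5 and Prelp, had an unadjusted p under 0.05, against 8.55% of all genes. Read against this background, the counts are no result about the matrix genes as a list.

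The median log2 fold change of the 37 genes was 0.05 at 21 against 6 months, with 21 genes above 0 and 16 below, while the median of all tested genes was -0.01, with 48.0% above 0 and 52.0% below. At 15 against 6 months it was -0.12 with 14 above 0 and 23 below, against a median of -0.01 for all genes, 48.6% above 0 and 51.4% below. At 21 against 15 months it was 0.12 with 29 above 0 and 8 below, against a median of -0.003 for all genes, 49.2% above 0 and 50.8% below. Leaving out mouse 2 at 15 months brought that median to 0.0025, leaving out mouse 3 at 21 months to 0.03 and leaving out mouse 1 at 15 months to 0.24. For 15 against 6 months, omission of mouse 2 at 15 months gave 0.02, and omission of mouse 3 at 6 months gave 0.03. For 21 against 6 months, omission of mouse 1 at 6 months gave -0.04, and omission of mouse 2 at 6 months gave 0.002. By role, the median at 21 against 6 months was 0.05 for elastic fibre genes, 0.22 for proteoglycans, 0.03 for adhesive and matricellular genes, -0.15 for crosslinkers and 0.12 for tendon and cartilage genes. With total count scaling, which shifted all genes by a median of 0.08, Thbs4, Sparcl1 and Tnxb changed sign at 15 against 6 months, none of them beyond 0.07.

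**Figure D1:**
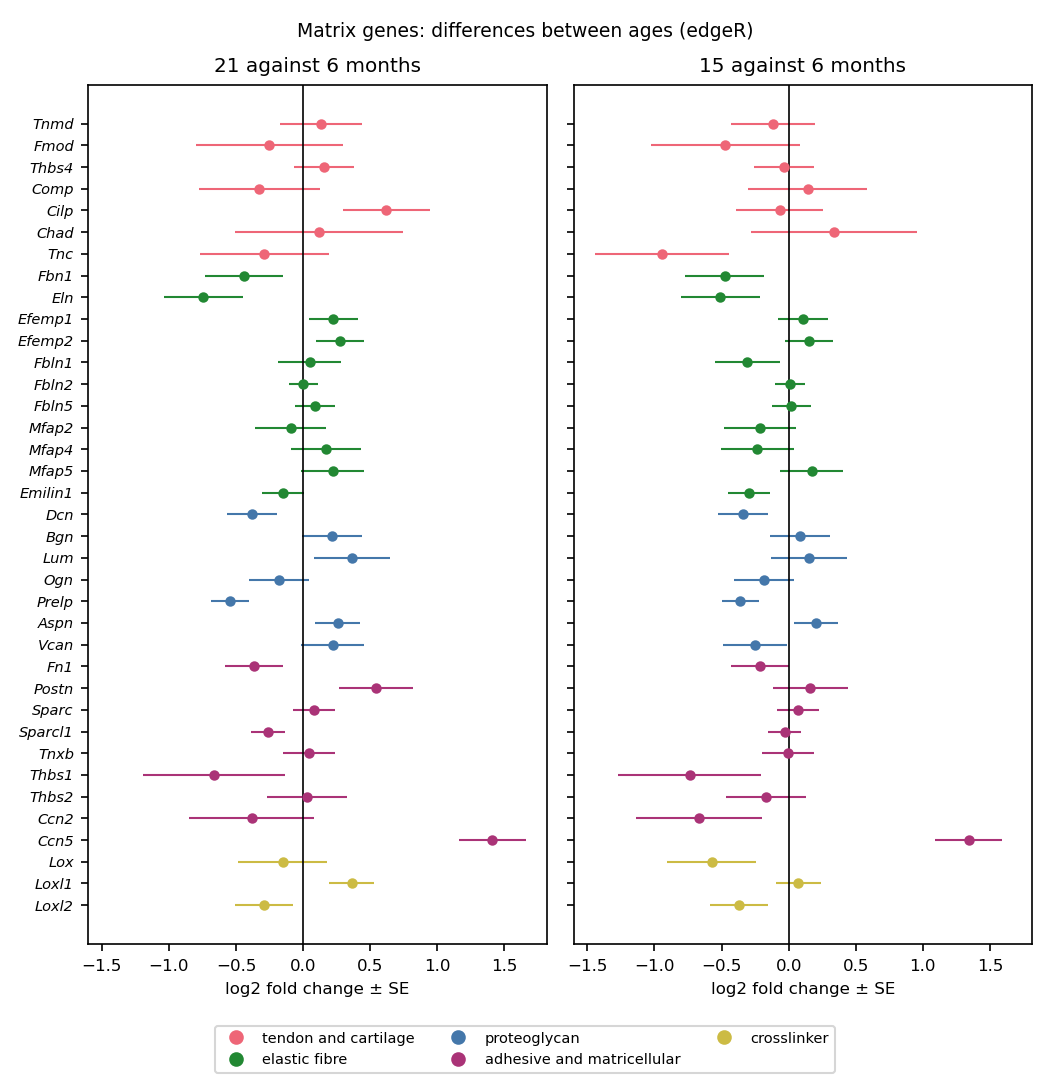
Log2 fold change (horizontal axis) with its SE for each of the 37 matrix genes, from edgeR on all 9 libraries, at 21 against 6 months (left) and 15 against 6 months (right). Most genes lie within 0.5 of 0, and Ccn5 stands at 1.41 and 1.34.

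Per kilobase of exon, the levels of the matrix genes spanned 0.689 to 153 CPM per kb, averaged over the 9 mice. Dcn (decorin) stood highest at 153 CPM per kb, followed by Sparcl1 at 80.7 and Sparc at 65.6 CPM per kb. Ogn (osteoglycin) was next at 44.5 CPM per kb and Thbs4 the fifth at 29.9 CPM per kb. The lowest levels per length were those of Tnc at 0.689, Comp at 1.03 and Vcan at 1.05 CPM per kb. Measured against the longest transcript in place of all exons, Sparc stood above Sparcl1, at 108 against 85.9 CPM per kb, and Dcn at 191 CPM per kb was still first.

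Among the adhesive and matricellular genes, Ccn5 (Entrez ID 22403, chr2:163820752-163833146, mm10) stood at 2.14, 1.001 and 1.47 CPM in mice 1 to 3 at 6 months. It stood at 3.53, 4.01 and 4.17 CPM at 15 months and at 4.27, 3.76 and 4.26 CPM at 21 months. Each of the 6 older mice lay above each of the 3 mice at 6 months, and the 2 older groups overlapped. At 21 against 6 months the log2 fold change was 1.41 (SE 0.25, edgeR adjusted p = 0.0698). For 15 against 6 months it came to 1.34 (SE 0.25, edgeR adjusted p = 0.194). DESeq2 gave adjusted p = 0.000842 and 0.00354 for the same comparisons. At 21 against 15 months the log2 fold change was 0.07 (SE 0.23). The gene rests on few reads, 16 to 71 per library. Without the 3 libraries that stood apart it stood at 1.15 at 21 against 6 months and 1.18 at 15 against 6 months, with edgeR adjusted p of 0.178 and 0.266. The 7 smooth muscle and pericyte markers summed to 709 to 1036 CPM at 6 months, 974 to 1229 CPM at 15 months and 874 to 1154 CPM at 21 months, lowest in mouse 2 at 6 months, where Ccn5 was also lowest. The older mice did not share this order. Mouse 1 at 21 months had the highest Ccn5, 4.27 CPM, and the lowest older sum, 874 CPM. Mouse 1 at 15 months had the lowest older Ccn5, 3.53 CPM, and the highest sum, 1229 CPM. Most of each sum was Rgs5, at 540 to 914 CPM, and the part of smooth muscle cells and pericytes in the Ccn5 values was not tested.

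Its relative Ccn2, a profibrotic member of the CCN family also known as connective tissue growth factor, followed another order. Ccn2 was measured at 22.4, 27.9 and 7.23 CPM in mice 1 to 3 at 6 months, at 16.1, 7.64 and 12.5 CPM at 15 months and at 11.5, 9.72 and 22.9 CPM at 21 months. All ages overlapped, and the log2 fold change at 21 against 6 months was -0.38 (SE 0.47). Thbs1, thrombospondin 1, which can activate latent TGF-beta, was measured at 22.4, 37.2 and 8.03 CPM at 6 months, at 19.5, 5.36 and 15.6 CPM at 15 months and at 11.2, 11.9 and 19.6 CPM at 21 months. The 4 mice with the most Ccn2 were the same 4 as those with the most Thbs1, namely mice 1 and 2 at 6 months, mouse 1 at 15 months and mouse 3 at 21 months. These 2 genes, singled out after their values were seen, had a larger spread within ages than 98.7 and 99.2% of tested genes. Over 665 bases, 23.2% of its exon length, Ccn2 overlaps Gm15270 on the opposite strand, and without strand the reads of the 2 genes cannot be told apart there.

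Sparc and Sparcl1, the most abundant of this role, are related collagen-binding glycoproteins. Sparcl1 stood at 246, 235 and 278 CPM in mice 1 to 3 at 6 months, at 273, 232 and 238 CPM at 15 months and at 191, 198 and 243 CPM at 21 months. Mice 1 and 2 at 21 months lay below every other mouse, mouse 3 did not, and the log2 fold change at 21 against 6 months was -0.26 (SE 0.12, edgeR adjusted p = 0.481). Sparc stood at 234, 193 and 292 CPM at 6 months, at 280, 243 and 232 CPM at 15 months and at 220, 274 and 267 CPM at 21 months. Its groups overlapped in every comparison, with a log2 fold change of 0.08 (SE 0.16) at 21 against 6 months. Postn, the fibroblast glycoprotein periostin, stood at 12.9, 10.9 and 10.4 CPM at 21 months against 9.05, 4.26 and 10.2 CPM at 6 months. The groups did not overlap, which held for 2 of the 37 genes in the higher direction, Ccn5 and Postn, and for 7.83% of all genes. At 15 against 6 months it held in the higher direction for 1 of the 37, Ccn5, and for 6.63% of all genes. The log2 fold change of Postn was 0.54 (SE 0.28, edgeR adjusted p = 0.514), and 0.24 without mouse 2 at 6 months. The remaining 3, Fn1 (fibronectin), Tnxb (a tenascin of loose connective tissue) and Thbs2, had log2 fold changes between -0.37 and 0.05 at 21 against 6 months. Over the 9 mice Fn1 ranged from 63.2 to 124 CPM, Tnxb from 123 to 208 CPM and Thbs2 from 15.3 to 36.4 CPM.

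**Figure D2:**
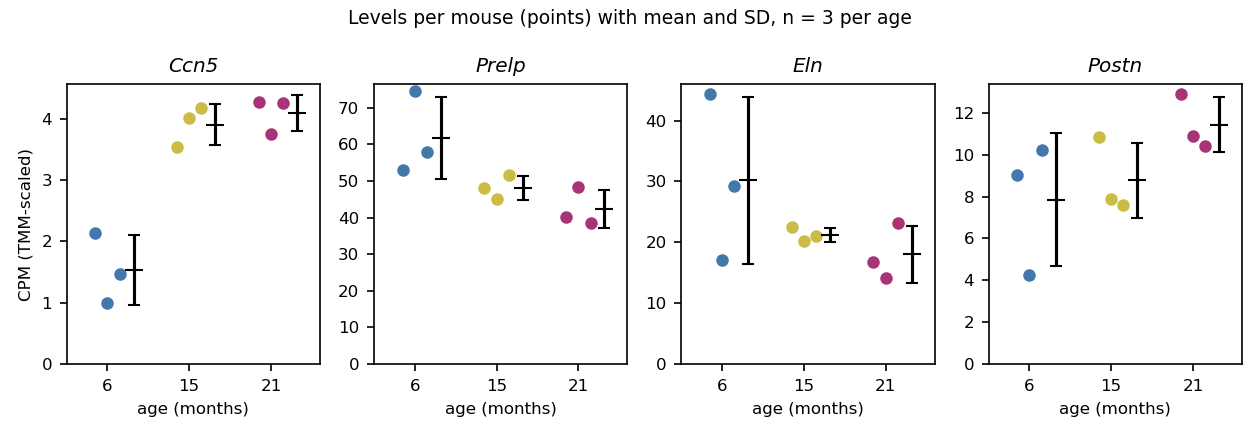
CPM (vertical axis, TMM-scaled, starting at 0) per mouse for Ccn5, Prelp, Eln and Postn at 6, 15 and 21 months, with the mean and SD of 3 mice beside each group. Ccn5 lies at 1.001 to 2.14 CPM at 6 months and at 3.53 to 4.27 CPM in the 6 older mice, and Prelp is lower in each older mouse than in each mouse at 6 months.

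Among the proteoglycans, Prelp (Entrez ID 116847, chr1:133910304-133930102) stood at 53.0, 74.5 and 58.0 CPM in mice 1 to 3 at 6 months. It stood at 48.0, 45.1 and 51.6 CPM at 15 months and at 40.1, 48.4 and 38.5 CPM at 21 months. Both older groups lay wholly below the 6-month group, which held for 1 of the 37 genes in the lower direction in each comparison, against 8.30% of all genes at 21 against 6 months and 7.15% at 15 against 6 months. The log2 fold change was -0.55 (SE 0.14, edgeR adjusted p = 0.198, DESeq2 adjusted p = 0.0480) at 21 against 6 months. At 15 against 6 months it was -0.36 (SE 0.14, edgeR adjusted p = 0.408, DESeq2 adjusted p = 0.417). Without the 3 libraries that stood apart the 21 against 6 months value was -0.33 and the 15 against 6 months value -0.20. Over 350 bases, 9.68% of its exon length, Prelp overlaps Gm15851 on the opposite strand, and the sources used here do not say if counting used strand.

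Genes of this proteoglycan family lie in clusters on chromosomes 1, 10 and 13. Prelp and Fmod, the tendon proteoglycan fibromodulin, lie 107.2 kb apart on chromosome 1. Their upstream sequences are shown because the genes are neighbours of 1 family. At 21 against 6 months Prelp had age groups that did not overlap, and Fmod had the wide spread described below for tendon genes. Their log2 fold changes there, -0.55 (SE 0.14) and -0.25 (SE 0.55), were not tested against each other. Each run holds the 250 bases before the transcription start listed by RefSeq (GRCm38.p6), 5′ to 3′ on the gene's strand, Prelp from chr1:133921402-133921651 on the minus strand and Fmod from chr1:134037004-134037253 on the plus strand. Capitals mark the E-box CANNTG, a site class that scleraxis and other helix-loop-helix factors can bind, and the TATA box TATAAA, both searched on both strands with no overlap between them in the 4 sequences printed.
Prelp: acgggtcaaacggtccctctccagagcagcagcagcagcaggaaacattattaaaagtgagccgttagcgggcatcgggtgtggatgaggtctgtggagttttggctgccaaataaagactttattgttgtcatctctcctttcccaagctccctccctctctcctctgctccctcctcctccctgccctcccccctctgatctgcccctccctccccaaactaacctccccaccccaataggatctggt
Fmod: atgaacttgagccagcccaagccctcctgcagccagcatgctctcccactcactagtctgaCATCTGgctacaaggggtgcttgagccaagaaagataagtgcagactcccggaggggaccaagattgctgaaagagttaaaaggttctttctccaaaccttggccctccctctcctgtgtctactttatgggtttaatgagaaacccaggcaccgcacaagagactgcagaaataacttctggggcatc
Prelp held 0 matches to either motif in this window, and Fmod held 1 E-box and 0 TATA boxes. Of the 32851 windows of this length in the table, 66.2% held at least 1 E-box and 12.4% a TATA box. The start listed for Prelp lies inside the span of the gene.

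On chromosome 10, Dcn (chr10:97479500-97518163) and Lum, encoding the collagen-binding lumican (chr10:97565501-97572703), had log2 fold changes of -0.38 (SE 0.19) and 0.36 (SE 0.28) at 21 against 6 months. Dcn was measured at 788, 1391 and 969 CPM in mice 1 to 3 at 6 months, at 844, 821 and 820 CPM at 15 months and at 882, 798 and 734 CPM at 21 months. Mouse 2 at 6 months was far above all others, and without it the log2 fold change of Dcn at 21 against 6 months was -0.13. On chromosome 13, Aspn, encoding asporin, and Ogn had log2 fold changes of 0.26 (SE 0.17) and -0.18 (SE 0.22) at 21 against 6 months. Ogn was measured at 84.5, 151 and 137 CPM at 6 months, at 93.1, 103 and 132 CPM at 15 months and at 122, 120 and 85.7 CPM at 21 months, so its groups overlapped. Their neighbour Ecm2, a matrix gene outside the 37, was measured at 32.9, 37.6 and 37.9 CPM at 21 months against 44.9, 48.4 and 52.1 CPM at 6 months. Its log2 fold change was -0.42 (SE 0.09, edgeR adjusted p = 0.137, DESeq2 adjusted p = 0.0289). Bgn, the X-linked relative of decorin, and Vcan, the large proteoglycan versican, each had a log2 fold change of 0.22 at 21 against 6 months, with SE 0.23 and 0.24. Over the 9 mice Lum ranged from 30.7 to 67.9 CPM, Aspn from 35.6 to 57.8 CPM, Bgn from 41.1 to 82.2 CPM and Vcan from 10.7 to 21.8 CPM. Vcan was 1 of 2 genes, with Fbln1, whose 21-month mice all lay above the 15-month mice, against 2.84% of all genes. In the lower direction this held for 0 of the 37 and 3.31% of all genes.

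Among the elastic fibre genes, Eln, which encodes elastin itself (Entrez ID 13717, chr5:134702595-134747368), stood at 44.4, 17.02 and 29.2 CPM in mice 1 to 3 at 6 months. It stood at 22.5, 20.2 and 21.0 CPM at 15 months and at 16.7, 14.1 and 23.2 CPM at 21 months. Mouse 2 at 6 months lay within the range of the older mice, so the ages overlapped. The log2 fold change at 21 against 6 months was -0.74 (SE 0.29, edgeR adjusted p = 0.396). It was -0.36 without mouse 1 at 6 months and -1.25 without the 3 libraries that stood apart, and it did not pass the threshold in either. Smooth muscle cells make much of the elastin of vessels. The sum of their markers given above was lowest in mouse 2 at 6 months, whereas Eln was lowest in mouse 2 at 21 months, and the part of such cells in the Eln values was not tested. Fbn1, the microfibril backbone fibrillin 1, stood at 107, 64.8 and 121 CPM at 6 months, at 103, 58.7 and 48.8 CPM at 15 months and at 71.9, 58.0 and 85.5 CPM at 21 months. Its log2 fold change at 21 against 6 months was -0.44 (SE 0.29), with overlapping groups. Over 2442 bases, 20.1% of its exon length, Fbn1 overlaps Gm9913 on the opposite strand.

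Fbln2, fibulin 2, was the steadiest of the 37 genes. It stood at 122, 106 and 127 CPM at 6 months, at 131, 115 and 111 CPM at 15 months and at 114, 113 and 129 CPM at 21 months. The highest mouse held 1.24 times the lowest, and the log2 fold change at 21 against 6 months was 0.002 (SE 0.11). The other 8 elastic fibre genes had log2 fold changes between -0.15 and 0.27 at 21 against 6 months. They are Efemp1, Efemp2 and Fbln5, fibulins of which Fbln5 tethers elastin and Efemp2 aids its crosslinking, Fbln1, the microfibril-associated Mfap2, Mfap4 and Mfap5, and Emilin1, a glycoprotein at the elastin and microfibril interface. Over the 9 mice Efemp1 ranged from 19.5 to 32.5 CPM, Efemp2 from 5.07 to 8.06 CPM, Fbln1 from 3.39 to 8.03 CPM and Fbln5 from 27.6 to 39.6 CPM. Mfap5 ranged from 13.96 to 25.01 CPM and Emilin1 from 7.14 to 11.5 CPM, while Mfap2 at 1.19 to 1.96 CPM and Mfap4 at 1.85 to 4.12 CPM were scarce. Of the 11 genes 7 were above 0 and 4 below at 21 against 6 months, against 48.0% and 52.0% of all genes. Eln was the single gene of the 11 with an unadjusted p under 0.05, which 10.6% of all genes had.

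The crosslinkers Lox, Loxl1 and Loxl2, copper-dependent amine oxidases that join collagen and elastin chains, did not share 1 pattern over the mice. Lox stood at 21.7, 32.2 and 13.98 CPM in mice 1 to 3 at 6 months, at 18.1, 9.18 and 18.3 CPM at 15 months and at 25.1, 21.1 and 14.7 CPM at 21 months. It ranged 3.50-fold over the mice with overlapping groups, and its log2 fold change at 21 against 6 months was -0.15 (SE 0.33). Loxl2 stood at 23.7, 20.4 and 36.96 CPM at 6 months, at 23.8, 19.8 and 19.1 CPM at 15 months and at 18.5, 21.4 and 26.4 CPM at 21 months. Mouse 3 at 6 months was the highest, the groups overlapped, and the log2 fold change was -0.29 (SE 0.21). Loxl1, the family member most tied to elastic fibres, averaged 22.0 ± 3.33 CPM at 21 months against 17.1 ± 2.72 CPM at 6 months (SD, n = 3 each). This gave Loxl1 a log2 fold change of 0.36 (SE 0.17, edgeR adjusted p = 0.476).

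**Figure D3:**
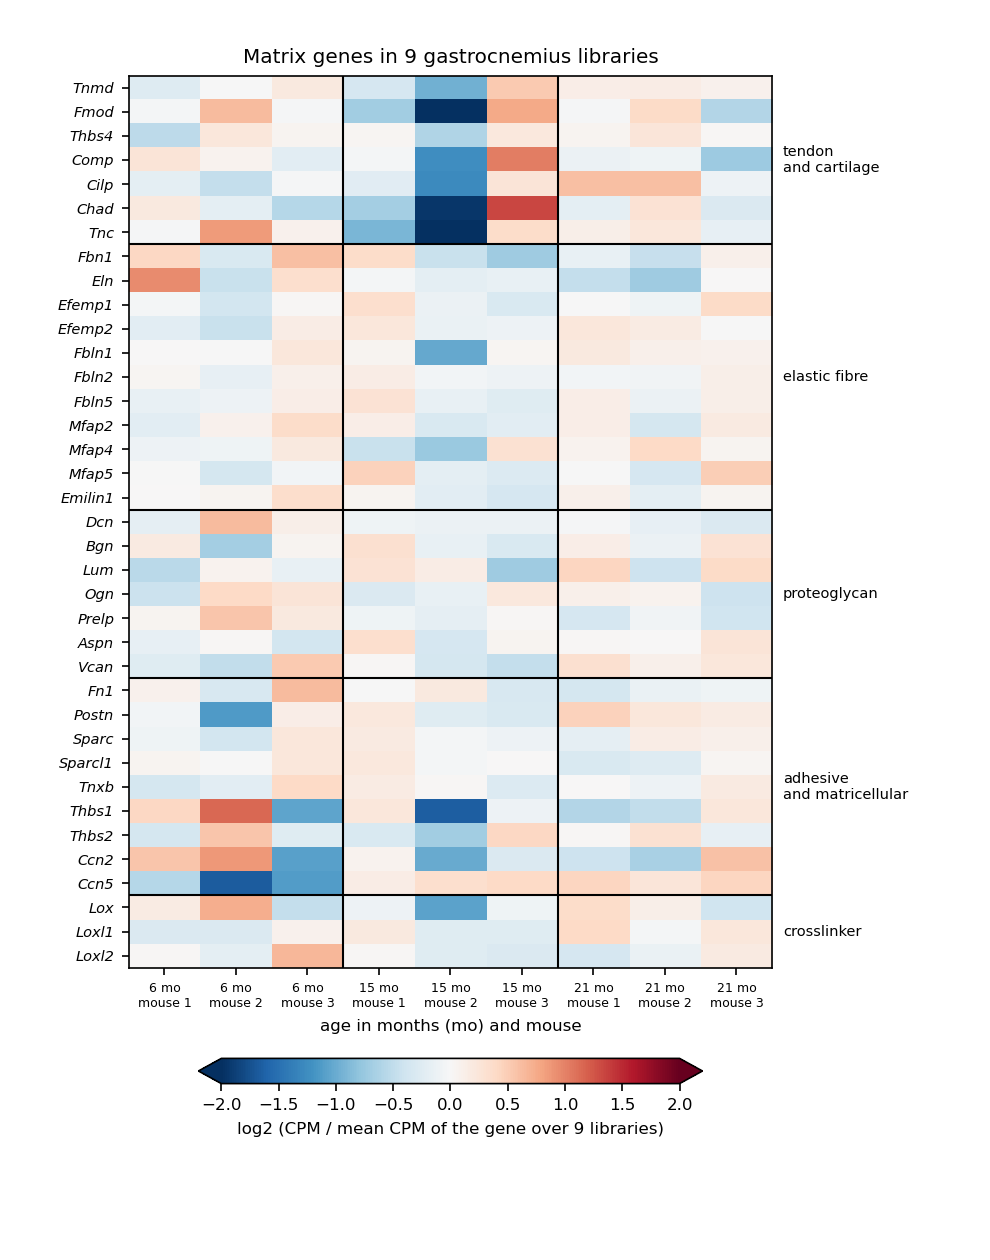
Level of each of the 37 matrix genes (rows, by role) in each of the 9 libraries (columns, by age in months and mouse) as log2 of CPM over the gene's mean CPM. All 7 tendon and cartilage genes are below their mean in mouse 2 at 15 months and above it in mouse 3 at 15 months.

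The tendon and cartilage genes formed the most variable group. The ratio of the highest to the lowest mouse had a median of 4.78 over the 7 genes and ran from 1.80 to 9.77, while its median was 1.95 over the 30 interstitial genes and 1.52 over all tested genes. In 6 of the 7 the spread within ages was above that of 90% of tested genes, which held for 8 of the 30 interstitial genes. This ranking was not matched on level. Tnmd, Comp, Chad and Tnc averaged 4.07, 3.05, 3.09 and 5.35 CPM, so counting error adds to their spread and ratios. Fmod and Cilp, also among the 6, averaged 64.7 and 57.5 CPM. All 7 were lowest in mouse 2 at 15 months, a library in which 8.80% of all tested genes were lowest, and 4 of 7 were highest in mouse 3 at 15 months, where 8.37% of all genes were highest. As a description over 7 genes that share their libraries, this carries no test.

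Fmod stood at 63.2, 100.3 and 63.9 CPM in mice 1 to 3 at 6 months, at 40.1, 14.4 and 109.5 CPM at 15 months and at 63.7, 84.1 and 43.3 CPM at 21 months. Mouse 3 at 15 months held 7.59 times the level of mouse 2 of the same age. Chad, chondroadherin, a leucine-rich cell-binding protein of cartilage, stood at 3.52, 2.69 and 2.08 CPM at 6 months, at 1.92, 0.801 and 7.77 CPM at 15 months and at 2.70, 3.76 and 2.53 CPM at 21 months. The 15-month mice thus held both its highest and its lowest value. Comp, a pentameric matrix protein of cartilage and tendon, stood at 3.65, 3.19 and 2.64 CPM at 6 months, at 2.98, 1.29 and 6.19 CPM at 15 months and at 2.82, 2.86 and 1.85 CPM at 21 months. Its extremes fell in the same pair of mice. Tnmd, tenomodulin, a membrane protein of mature tendon cells, stood at 3.39, 4.07 and 4.66 CPM at 6 months, at 3.22, 2.10 and 5.88 CPM at 15 months and at 4.45, 4.53 and 4.32 CPM at 21 months.

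Tnmd and Chad, like Fmod, had both their extremes in mice 2 and 3 at 15 months, and their 250 upstream bases (RefSeq, GRCm38.p6, plus strand) are shown for comparison with Fmod with E-box and TATA box in capitals as above, Tnmd from chrX:133850758-133851007 and Chad from chr11:94564797-94565046.
Tnmd: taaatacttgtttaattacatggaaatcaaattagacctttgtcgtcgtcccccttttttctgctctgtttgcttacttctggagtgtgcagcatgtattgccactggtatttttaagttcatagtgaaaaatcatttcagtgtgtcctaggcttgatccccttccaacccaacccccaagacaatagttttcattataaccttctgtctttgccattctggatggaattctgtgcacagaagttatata
Chad: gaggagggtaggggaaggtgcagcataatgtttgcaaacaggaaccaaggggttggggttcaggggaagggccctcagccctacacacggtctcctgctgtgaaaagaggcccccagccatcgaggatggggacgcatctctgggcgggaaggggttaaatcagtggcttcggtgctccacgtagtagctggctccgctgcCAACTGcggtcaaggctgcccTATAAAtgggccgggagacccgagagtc
Chad held 1 E-box and 1 TATA box, which starts 28 bases before the transcription start, and Tnmd held 0 of each. A match is a run of letters in this window and was not measured as a bound site.

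Tnc, tenascin C, a glycoprotein of the muscle-tendon junction and of injured matrix, stood at 5.28, 9.64 and 5.70 CPM at 6 months, at 2.85, 0.986 and 6.89 CPM at 15 months and at 5.83, 6.26 and 4.76 CPM at 21 months. Its log2 fold change at 15 against 6 months was -0.94 (SE 0.50, edgeR adjusted p = 0.554), with -0.50 on leaving out mouse 2 and -1.84 on leaving out mouse 3 at 15 months. Thbs4, thrombospondin 4 of tendon and muscle attachment sites, stood at 68.8, 115 and 103 CPM at 6 months, at 101, 64.5 and 114 CPM at 15 months and at 102, 116 and 100.4 CPM at 21 months. It was the steadiest of the 7. Cilp, cartilage intermediate layer protein, stood at 50.5, 41.2 and 56.6 CPM at 6 months, at 49.0, 23.9 and 68.7 CPM at 15 months and at 87.3, 87.1 and 53.4 CPM at 21 months. Mice 1 and 2 at 21 months were above every other mouse and mouse 3 was not. The log2 fold change of Cilp was 0.62 (SE 0.32, edgeR adjusted p = 0.527) at 21 against 6 months, and relative to 15 months it was 0.69 (SE 0.32), and the latest age overlapped both others.

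Mouse 3 at 15 months held 1.77 to 9.70 times the level of mouse 2 in the 7 genes, so fold changes against this age depended on single mice in size and in most genes in sign. On leaving out any 1 library, Tnc kept its sign in both comparisons with 15 months. Fmod kept it at 15 against 6 months and Cilp at 21 against 15 months. At 15 against 6 months the log2 fold change of Chad came to 0.34 with all mice, to 0.81 on leaving out mouse 2 at 15 months and to -1.02 on leaving out mouse 3. For Comp these values were 0.14, 0.54 and -0.56, and for Fmod -0.47, -0.02 and -1.47. The median of the 7 genes at 15 against 6 months was -0.07, with 0.17 on leaving out mouse 2 and -0.60 on leaving out mouse 3 at 15 months. At 21 against 15 months it was 0.22, with -0.04 and 1.06 for the same omissions. None of the 7 passed the threshold in these fits.

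Markers of tenocytes and of the muscle-tendon junction outside the 37 genes had their lowest sum in mouse 2 at 15 months, though their highest sum was in mouse 2 at 6 months. The 7 markers Scx, Mkx, Kera, Col11a1, Col22a1, Fibin and Tnn summed to 54.9 to 86.3 CPM at 6 months, 20.1 to 52.4 CPM at 15 months and 32.5 to 43.5 CPM at 21 months. All 6 sums at the older ages lay below the 3 sums at 6 months. Fibin and Col22a1, with means of 19.1 and 18.1 CPM, made up most of each sum. Fibin was lower in each older mouse than in each 6-month mouse. Col22a1 overlapped, at 25.3 CPM in mouse 3 at 15 months against 19.4 CPM in mouse 1 at 6 months. Scx was not lower at 21 months, at 4.51, 3.52 and 3.77 CPM against 3.65, 1.56 and 4.17 CPM at 6 months. Of the 6 markers tested, 5 were below 0 both at 21 against 6 months, with a median log2 fold change of -0.51, and at 15 against 6 months, with a median of -0.60. At an unadjusted p under 0.05, 1 was lower at 21 months and 2 at 15 months, each against 6 months, where 5.50% and 5.38% of all genes were lower. After adjustment edgeR called 0 of them, while DESeq2 called 1 in each of these comparisons and over the 3 ages. Of all genes, DESeq2 called 1.44% at 21 against 6 months, 0.846% at 15 against 6 months and 1.53% over the 3 ages. The comparisons share the 3 mice at 6 months. Mouse 2 at 15 months had the lowest sum, 20.1 CPM, and the lowest value in 5 of the 7 markers. Scx, scleraxis, the defining tendon factor, was 3.45 CPM in that mouse within a range of 1.56 to 5.05 CPM over the 9, so it did not share the low value. Col22a1, a collagen of the muscle-tendon junction, was lowest there at 5.79 CPM within a range up to 27.4 CPM. With this gene in it, the sum is not a measure of tenocytes alone. Chondrocyte markers summed to 3.44 to 8.95 CPM at 6 months, 4.90 to 6.04 CPM at 15 months and 2.98 to 5.25 CPM at 21 months, and the defining cartilage gene Acan did not exceed 0.0628 CPM in any library. Col9a1, at 1.19 to 5.70 CPM, and Sox9, at 1.07 to 2.58 CPM, made up most of each chondrocyte sum. The amount of tendon in each sample was not measured, and its part in these values was not tested.

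**Figure D4:**
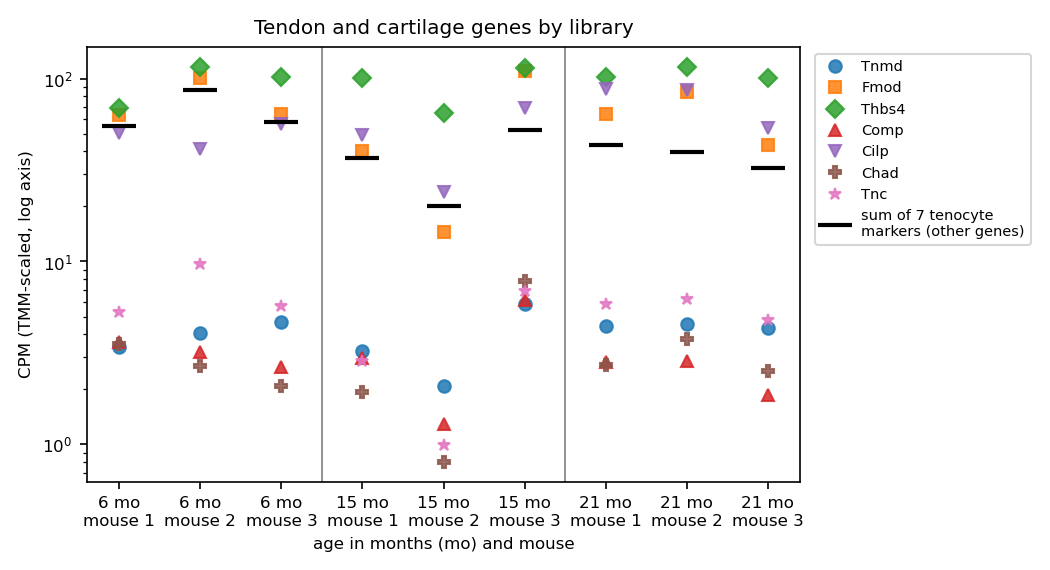
CPM (vertical log axis, TMM-scaled) of the 7 tendon and cartilage genes, with the summed CPM of 7 other tenocyte and muscle-tendon junction markers as black bars, in each of the 9 libraries by age in months and mouse. All 7 genes and the marker sum are lowest in mouse 2 at 15 months, and Fmod there stands at 14.4 CPM against 109.5 CPM in mouse 3 of that age.

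Fibro-adipogenic progenitors, the main interstitial matrix producers of muscle, are marked by Pdgfra, which ranged from 49.5 to 77.9 CPM over the 9 mice and by Pi16, which ranged from 21.7 to 33.7 CPM. The 6 markers of this list summed to 521 to 959 CPM at 6 months, 666 to 1538 CPM at 15 months and 654 to 1306 CPM at 21 months, a range set by Lpl, which fibres also express and which ran from 222 to 1202 CPM. Among interstitial matrix genes, mouse 3 at 6 months was highest in 10 of 30, against 14.7% of all tested genes. Mouse 2 at 6 months was lowest in 10 of 30, against 18.7%, and highest in 7 of 30, against 20.3%. The genes that were high there included Dcn, Ogn, Prelp, Thbs1 and Lox, and those that were low included Bgn, Postn and Ccn5. The 5 adipocyte markers of that mouse summed to 42.1 CPM against 2.71 to 8.77 CPM in the other libraries. Macrophage markers, 8 genes, summed to 158 to 245 CPM at 6 months, 82.8 to 187 CPM at 15 months and 107 to 177 CPM at 21 months. Endothelial markers lay between 401 and 598 CPM, Schwann cell markers between 76.5 and 186 CPM and erythrocyte markers between 355 and 856 CPM over the 9 libraries. The part of these cells in the matrix gene values was not tested.

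Related genes outside the 37 were read from lists given in full as counts at an unadjusted p under 0.05. The genes named here and in the next paragraph had the smallest p of their list. After adjustment edgeR called 0 genes of these lists in every comparison. These counts stand against 5.14% of all genes higher and 5.50% lower at 21 against 6 months, 4.91% and 5.38% at 15 against 6 months, and 1.08% and 0.736% at 21 against 15 months. Of 34 tested other matrix genes, 2 were higher and 4 lower at 21 against 6 months, 1 higher and 6 lower at 15 against 6 months, and 1 higher and 0 lower at 21 against 15 months. None was called by edgeR, and Ecm2 was the single DESeq2 call at 21 against 6 months, where DESeq2 called 1.44% of all genes. Over the 3 ages DESeq2 called 1 gene of this list, where it called 1.53% of all genes. On the log2 fold change scale, Vtn, the plasma adhesion protein vitronectin, stood at 0.47 (SE 0.12) and Spock2, a matrix proteoglycan, at 0.47 (SE 0.15) at 21 against 6 months. Abi3bp, a matrix protein of connective tissue, stood at -0.57 (SE 0.17) at 15 against 6 months, and Srpx2 reached 0.34 (SE 0.15) at 21 against 15 months. Of 20 tested collagen-modifying and further crosslinking enzymes, 0 were higher and 2 lower at 21 against 6 months, 0 higher and 3 lower at 15 against 6 months, and 1 higher and 0 lower at 21 against 15 months. With their log2 fold changes, those lower were the procollagen protease gene Adamts3 at -1.27 (SE 0.47), the prolyl hydroxylase P4ha2 at -0.26 (SE 0.11), and at 15 against 6 months Adamts3 at -1.37 (SE 0.48), P4ha1 at -0.33 (SE 0.12) and the lysyl oxidase relative Loxl4 at -0.69 (SE 0.28). The gene higher at 21 against 15 months was Loxl4 too, at 0.63 (SE 0.28), with mean levels of 3.56 CPM in the 6-month, 2.20 CPM in the 15-month and 3.40 CPM in the 21-month mice. Adamts3 was at 3.74 CPM in mouse 3 at 6 months and at 0.616 to 1.25 CPM in the other 8.

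The TGF-beta pathway drives many matrix genes in fibroblasts. Of its 26 tested genes, at the same threshold and against the same shares of all genes, 1 was higher and 3 lower at 21 against 6 months, 0 higher and 1 lower at 15 against 6 months, and 0 in either direction at 21 against 15 months. In log2 fold change, Smad2, a signal carrier, stood at 0.30 (SE 0.10), its inhibitor Skil at -0.29 (SE 0.11) and the receptor Acvr1 at -0.40 (SE 0.16) at 21 against 6 months. Their edgeR adjusted p were 0.321, 0.381 and 0.416. Skil stood at -0.29 (SE 0.11, edgeR adjusted p = 0.406) at 15 against 6 months. Of 24 tested matrix receptors 0 were higher and 5 lower at 21 against 6 months, where 5.14% and 5.50% of all genes were. At 15 against 6 months 0 were higher and 4 lower, where 4.91% and 5.38% of all genes were, and at 21 against 15 months 0 passed in either direction. DESeq2 called 0 of the receptors in each pairwise comparison and 1 over the 3 ages, where it called 1.53% of all genes. Sdc4, a fibronectin co-receptor, was measured at 43.1, 43.8 and 28.0 CPM at 21 months against 60.2, 80.0 and 46.5 CPM at 6 months. All 21-month mice lay below the 6-month mice, with a log2 fold change of -0.70 (SE 0.21, edgeR adjusted p = 0.250). The 15-month mice likewise had a log2 fold change of -0.73 (SE 0.21) relative to 6 months. The integrin chains Itga8 and Itga3 had log2 fold changes of -0.50 (SE 0.17) and -0.46 (SE 0.18) at 21 against 6 months, and at 15 against 6 months Itga11 and Itga3 stood at -0.49 (SE 0.15) and -0.53 (SE 0.18). Both comparisons share the 3 mice at 6 months.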

How the data were processed

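Messenger RNA was measured in gastrocnemius of 9 mice, 3 each at 6, 15 and 21 months. TRIzol extraction and oligo(dT) bead selection preceded sequencing, per the labels' protocols. What the authors deposited is a single table of estimated counts per gene, of which 90.0 to 90.7% per library came within 0.005 of a whole number. The submitters' processing notes name mm10 as the build, with aligner and counter not given in the sources used here. Columns were matched to samples by life stage and number, and 0 columns belonged to other samples.

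Estimated counts were rounded and filtered with filterByExpr (minimum count 10), scaled by TMM (factors 0.923 to 1.05) and fitted over all 9 libraries with edgeR 4.0.16 (R 4.3.3), quasi-likelihood test with 6 residual degrees of freedom. P-values were adjusted by Benjamini-Hochberg over 13044 genes with a threshold of 0.05. The design text gives 3 mice per age, and spread between them sets the errors. Total counts of 15354396 to 17317856 leave low genes with counting error. Positions and sequences are from RefSeq GRCm38.p6 (23 of 37 genes had a promoter sequence), exon lengths from GENCODE M21. Alternatives were DESeq2 1.42.0, RLE and total count scaling, 2 other filters, a block on the replicate number, fits of the 2 compared groups alone, and leaving out libraries. The procedure was tested on simulated counts.

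The 37 genes, the lists and the 3 libraries left out together were chosen with earlier results of these data known. Per mouse values were given for genes with an unadjusted p under 0.05, the 2 most abundant of each role and every tendon gene, and for further lists up to 3 genes per comparison. Thbs1, Ccn2, Postn, Loxl1, Vcan, Fbln1 and Ecm2 were added after their values were seen.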

Additional observations from a re-analysis of the deposited data

How the results depend on the processing

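The 37 matrix genes held 0 edgeR calls in each alternative run with edgeR. DESeq2 called 2 at 21 against 6 months, 1 at 15 against 6 months and 1 over the 3 ages. Ccn5 kept its direction at both older ages in each alternative, between 1.15 and 1.72 at 21 against 6 months, and was removed by the filter of at least 5 CPM in 3 libraries. Prelp lay between -0.65 and -0.33 there. At 21 against 6 months 15 of 37 genes had the other sign in at least 1 alternative, none of them beyond 0.29 in size in the main fit, so their direction depends on the setting. Lox, at -0.15 in the main fit, ran up to 0.38. At 15 against 6 months 21 of 37 had the other sign in at least 1 alternative, none beyond 0.34 in the main fit. The same count held at 21 against 15 months, none beyond 0.47. Of all genes, edgeR called 2 at 21 against 6 months, DESeq2 196, no filter 30, the replicate block 5 and total count scaling 1, and leaving out 1 library gave 0 to 42. At 15 against 6 months edgeR called 1, DESeq2 112, leaving out 1 library 0 to 10, and total count scaling, the filter of 5 CPM, the replicate block and the 2 groups alone 0 each. At 21 against 15 months edgeR and each leave-one-out fit called 0, and DESeq2 3. Over the 3 ages edgeR called 0, DESeq2 202, no filter 5, the replicate block 5 and leave-one-out fits 0 to 10. Leaving out 1 library moved the median of the 37 genes over -0.0354 to 0.0654 at 21 against 6 months, -0.223 to 0.034 at 15 against 6 months and 0.0025 to 0.245 at 21 against 15 months. For interstitial genes it ran from -0.205 to 0.0626 at 15 against 6 months and from 0.0235 to 0.252 at 21 against 15 months. For tendon genes it ran from -0.0773 to 0.152 at 21 against 6 months and from -0.0359 to 1.06 at 21 against 15 months, and the filter of 5 CPM, which keeps fewer of them, gave -0.046 at 21 against 6 months. The replicate numbers were not taken as pairs: correlations of same-numbered deviations ran from -0.418 to 0.406, and 2 of 9 libraries correlated best with their own number. The cause of these shifts was not tested. Genes averaging 1.53 to 3.18 CPM, such as Mfap2, Comp, Chad and Ccn5, are limited by depth. With 3 mice per age small differences may have been missed, and the smallest detectable difference is not given here.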
